A study of Mus musculus with 4 samples.

Results

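AE4-only intergenic peaks are places far from protein-coding genes where the antibody AE4, used for the somatic linker histones, gave a peak and the antibody against the oocyte linker histone H1foo gave none. They were chosen by 2 measured properties. A member is an AE4 peak on chromosomes 1 to 19 that shares no base pair with any H1foo peak, and its centre lies outside every protein-coding gene of the mm10 RefSeq annotation and more than 10 kb from each gene boundary. The rule found 6574 members among 47206 autosomal AE4 peaks, or 13.9%. Among all autosomal AE4 peaks 48.6% shared no base pair with an H1foo peak, and among intergenic ones 64.4% did not, which is the property the members were selected on. The H1foo list held 97617 autosomal peaks, of which 14828, or 15.2%, were H1foo-only and intergenic by the same rule.

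The peaks came from chromatin immunoprecipitation with sequencing in embryonic stem cells of the mouse strain 129S4/SvJae. One group of 2 libraries was made with AE4, a mouse monoclonal antibody from Santa Cruz, and the other group of 2 libraries with a rabbit polyclonal antibody against H1foo raised in-house. All 4 libraries came from untreated cells that overexpress an H1foo-GFP fusion, so cells without the added H1foo were not part of the comparison. Whether the cells are 1 clone is not stated in the labels. The authors deposited 1 peak list per antibody and no value per library. The values below therefore have no replicate error and no test between the antibodies, and the depth of the libraries is unknown.

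Linker histone H1 sits on the nucleosome where the DNA enters and leaves it, and helps to pack nucleosomes into more compact chromatin. Mouse somatic cells carry several H1 variants, and their density is generally lower at active promoters and enhancers than elsewhere. H1foo takes their place in the growing oocyte and the early embryo and is normally replaced by somatic variants as development goes on. Sequence far from protein-coding genes holds distal enhancers, long non-coding RNA (lncRNA) genes, clusters of small RNA genes and long gene-poor stretches. The term intergenic here means outside protein-coding genes only: 1262 members, or 19.2%, were centred inside a non-coding gene of the annotation.

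Only 2 of the 204 microRNA hairpins in intergenic sequence overlapped a member, and both lie in the imprinted Dlk1 to Dio3 region of chromosome 12, whose non-coding RNAs are made from the maternal copy. The mature sequences are shown because these hairpins lay wholly within the peaks. They are from RefSeq (GRCm38.p6), 5′ to 3′ on the plus strand, with the seed (bases 2 to 8) in capitals.
mmu-miR-487b-5p: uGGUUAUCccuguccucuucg
mmu-miR-541-5p: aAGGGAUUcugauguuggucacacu
mmu-miR-541-3p: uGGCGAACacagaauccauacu
No seed was shared among the 3. The Mir487b hairpin lies at chr12:109727333-109727414 within a member of score 84.64, and the Mir541 hairpin at chr12:109742409-109742498 within a member of score 52.16. The score is the peak caller's own value for a peak, with a minimum of 50 in the AE4 list and no scale stated in that list. Any AE4 peak was found at 4 of the hairpins, and any H1foo peak at 16.

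The span from Dlk1, which codes for a Notch-related growth regulator, to Dio3, which codes for a thyroid hormone deiodinase, covers 828.6 kb. It held 17 AE4 peaks, of which 12 were members, and 35 H1foo peaks. Over all autosomes members were 13.9% of AE4 peaks and 64.4% of the intergenic ones. The highest member there scored 125.6 at chr12:109856785-109857498. Within the span the lncRNA genes Meg3 and Rian held no member, and Mirg, the host of the microRNA cluster, held 1. Of the 204 intergenic hairpins, 39 lie in the 1 Mb of this chromosome that holds the cluster, so the overlap is with 2 of a dense group.

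The starts of lncRNA genes were the other places where sequence could be read under the members. Of 5860 RefSeq windows of intergenic lncRNA starts, each with 250 bases before and 50 bases after the start, 38 windows of 34 genes shared bases with a member, or 0.649%. The start site itself lay inside the peak for 21 of these genes. The first 3 windows below belong to the highest-scoring members that hold a start site, and Mexis, which lies near the cholesterol exporter gene Abca1 and is known from mouse macrophages, was added after its values were seen. The sequences are from RefSeq (GRCm38.p6), 5′ to 3′ on each gene's own strand, and capitals mark CpG dinucleotides. All 4 are on the minus strand.
1600019K03Rik, chr16:35509370-35509669: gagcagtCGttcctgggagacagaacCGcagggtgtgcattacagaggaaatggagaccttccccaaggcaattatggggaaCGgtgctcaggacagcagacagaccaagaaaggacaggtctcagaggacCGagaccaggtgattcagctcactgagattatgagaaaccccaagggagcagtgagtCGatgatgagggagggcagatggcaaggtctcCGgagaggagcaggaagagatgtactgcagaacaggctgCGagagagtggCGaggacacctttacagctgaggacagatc
Gm30117, chr17:85928552-85928851: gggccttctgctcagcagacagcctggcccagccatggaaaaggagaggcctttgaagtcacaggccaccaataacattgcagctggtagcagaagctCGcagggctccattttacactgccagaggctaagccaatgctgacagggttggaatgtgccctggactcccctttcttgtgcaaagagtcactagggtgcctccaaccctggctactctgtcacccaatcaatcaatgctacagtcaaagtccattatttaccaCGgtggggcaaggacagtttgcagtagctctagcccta
Gm41046, chr13:102665952-102666251: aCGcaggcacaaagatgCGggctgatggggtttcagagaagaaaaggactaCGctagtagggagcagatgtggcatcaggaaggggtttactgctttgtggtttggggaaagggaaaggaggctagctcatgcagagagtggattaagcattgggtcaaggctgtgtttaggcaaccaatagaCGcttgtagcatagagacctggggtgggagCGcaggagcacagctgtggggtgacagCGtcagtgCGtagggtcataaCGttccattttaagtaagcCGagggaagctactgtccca
Mexis, chr4:53265443-53265742: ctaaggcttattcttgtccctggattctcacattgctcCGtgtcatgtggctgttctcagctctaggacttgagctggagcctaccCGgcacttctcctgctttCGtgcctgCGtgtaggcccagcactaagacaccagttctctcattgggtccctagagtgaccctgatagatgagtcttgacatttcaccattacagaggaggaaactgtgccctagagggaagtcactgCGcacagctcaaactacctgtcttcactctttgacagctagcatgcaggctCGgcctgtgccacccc
The windows of 1600019K03Rik, Gm30117 and Mexis lay wholly inside their peaks, and 150 bases of the Gm41046 window did. Their peaks scored 92.55 at 1600019K03Rik, 79.61 at Gm30117, 75.33 at Gm41046 and 50.92 at Mexis. The 1600019K03Rik window held 8 CpG dinucleotides, that of Gm30117 held 2, that of Gm41046 held 9 and that of Mexis held 6.

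The 38 windows at members were richer in G and C than windows with no peak, and close to windows at the other peak classes. Their median G + C content was 51.0%, against 53.0% in 52 windows with both an AE4 and an H1foo peak, 52.3% in 356 windows with an H1foo peak alone and 46.3% in 5410 windows with no peak. The windows at members ranged widely, with G + C contents of 38.3% to 58.3% and 0 to 11 CpG dinucleotides. Their median CpG number was 5, as in both other peak classes, and 3 in windows with no peak. A few short promoter motifs were searched as exact letters on both strands. The GC box letters GGGCGG were in 5 of the windows at members, or 13.2%, and in 8.33% of all windows. They were in 9.62% of windows with both peaks and 18.8% of those with an H1foo peak alone. The TATA box letters TATAAA were in 7.90% of windows at members and 17.6% of all windows, and the CCAAT letters in 36.8% and 38.0%. In windows with both peaks and with an H1foo peak alone, TATAAA was in 5.77% and 9.27%, and CCAAT in 25% and 33.2%. The low TATAAA share was thus common to the 3 peak classes. These shares are descriptions of letters in a small set of windows, and genes with more than 1 annotated start give overlapping windows.

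**Figure D1:**
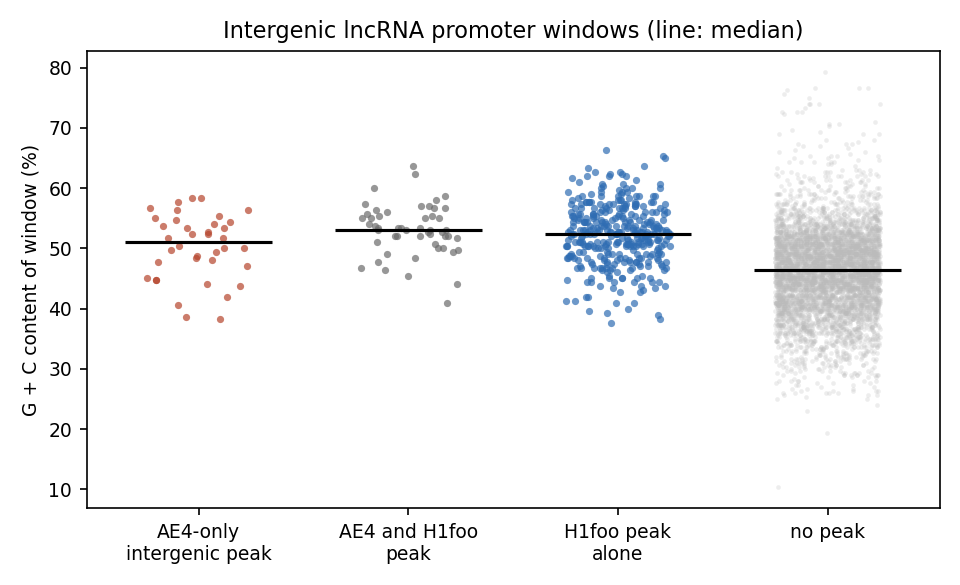
G + C content (%, vertical axis) of 300-base windows at intergenic lncRNA starts, 1 point per window, grouped by the peak they share bases with. Black lines are medians: 51.0% at AE4-only intergenic peaks, 53.0% at AE4 and H1foo peaks, 52.3% at H1foo peaks alone and 46.3% without a peak.

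AE4-only intergenic peaks were mostly weak and narrow within the AE4 list. Their scores ran from 50.01 to 1404 with a median of 58.6, and 55.1% of them scored below 60. Intergenic AE4 peaks shared with H1foo had a median score of 69.1, and AE4-only peaks inside genes 59.7. Members and AE4-only peaks inside genes thus had close score distributions over most of the range, while shared peaks were higher throughout. A score of at least 100 was reached by 230 members, or 3.50%, and by 18.6% of shared intergenic AE4 peaks. The median width was 418 bp among members, 512 bp among shared intergenic AE4 peaks and 423 bp among AE4-only peaks inside genes. Of intergenic AE4 peaks scoring 50 to 60, 76.5% shared nothing with an H1foo peak, and the share declined over each score class to 6.67% of those scoring 200 or more. The part that peak strength plays in the results below was not tested, except where values at a higher score are given beside them.

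**Figure D2:**
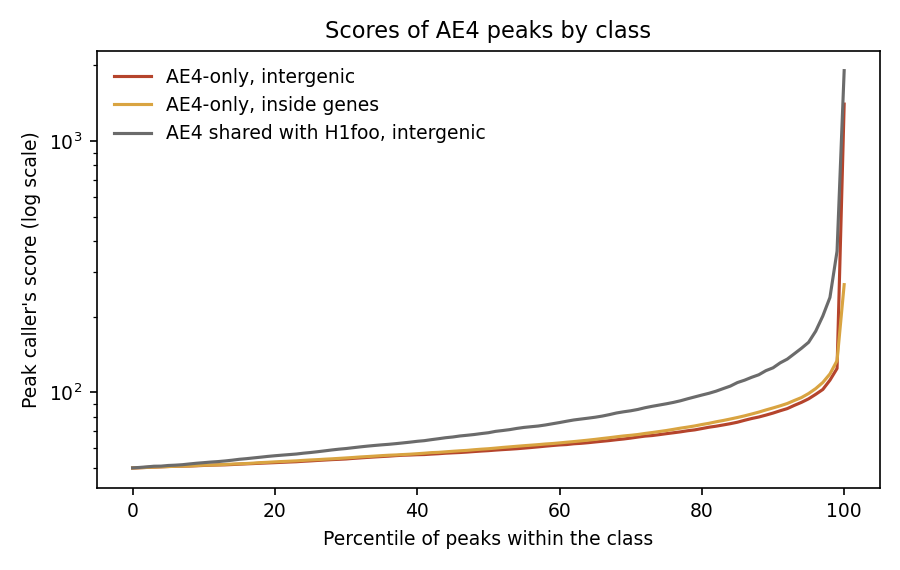
Score of AE4 peaks (log axis, the peak caller's value) at each percentile of 3 classes. The lines of AE4-only intergenic peaks (median 58.6) and AE4-only peaks inside genes (median 59.7) run together below the line of intergenic AE4 peaks shared with H1foo (median 69.1).

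The highest members formed 1 small region. Of the 10 members with the highest score, 7 lay between 19.7 and 20.9 Mb of chromosome 8, in the stretch of predicted genes and defensin genes around Gm15319 and Defb33, a gene of the beta-defensin family of antimicrobial peptides. The highest was chr8:20434127-20442495, with a score of 1404 and a width of 8369 bp, 75.1 kb from Gm15319. The next were chr8:19770458-19775440 with a score of 685.0 and chr8:20309317-20314849 with a score of 455.8. The 5 widest members lay in the same region and were 3833 to 8369 bp wide. Gene families with near-identical copies lie there, so the placement of reads among copies is uncertain. Between 20 and 21 Mb of this chromosome 19 members stood beside 29 shared intergenic AE4 peaks and 5 H1foo-only intergenic peaks.

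The remaining 3 of the 10 scored 184.5 to 202.9. One lay near Gm21190 on chromosome 5, a predicted gene. Another, at chr18:82165299-82166171, lay 226.8 kb from Galr1, which codes for a galanin receptor, and only 35 bp from the nearest H1foo peak. The third, at chr10:10571246-10572287, lay 13.6 kb from Rab32, which codes for a small GTPase of melanosome traffic.

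With distance from genes, AE4-only peaks thinned out far less than the other classes. Per Mb of sequence, members numbered 10.1 at 10 to 50 kb from the nearest gene, 6.23 at 50 to 100 kb, 3.26 at 100 to 500 kb, 1.77 at 500 kb to 1 Mb and 1.94 beyond 1 Mb. Shared intergenic AE4 peaks over the same steps numbered 7.58, 3.28, 0.798, 0.151 and 0.0767 per Mb. H1foo-only intergenic peaks numbered 28.5, 14.6, 4.44, 0.877 and 0.741 per Mb. The nearest step thus held 5.20 times the density of the farthest for members, 98.95 times for shared AE4 peaks and 38.5 times for H1foo-only peaks. At 10 to 50 kb from genes there were 2.83 H1foo-only peaks for each member, and beyond 1 Mb there were 0.382.

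The farthest step rests on 152 members, 6 shared AE4 peaks and 58 H1foo-only peaks in 78.3 Mb of sequence. Since sharing itself depends on where H1foo peaks lie, the same ratio was also taken without regard to it, and was 8.76 for all intergenic AE4 peaks and 43.96 for all intergenic H1foo peaks. Among peaks scoring at least 80 it was 6.85 for members and 88.9 for H1foo-only peaks, although the 2 lists' scores are not on a common footing. Few peaks of that score lay beyond 1 Mb, with 15 members (0.192 per Mb) and only 0.102 H1foo-only peaks per Mb, so these 2 ratios are uncertain. The median score of members hardly moved with distance, at 59.2 in the nearest step and 57.5 in the farthest.

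**Figure D3:**
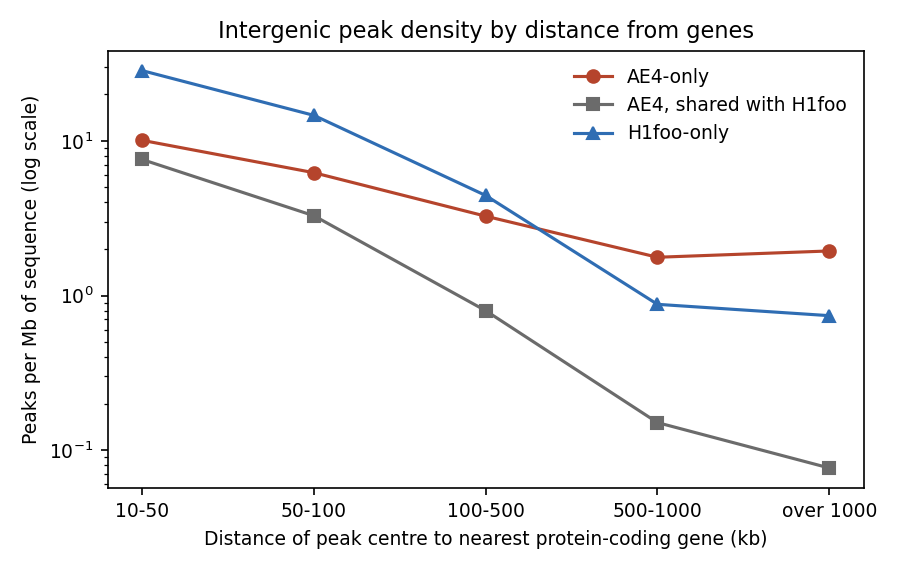
Peaks per Mb of sequence (log axis) against the distance of the peak centre from the nearest protein-coding gene (kb). AE4-only peaks decline to 1.94 per Mb beyond 1000 kb, crossing H1foo-only peaks (0.741 per Mb there) between the 100 to 500 kb and 500 to 1000 kb steps, while shared AE4 peaks decline to 0.0767 per Mb.

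The median distance of a member from the nearest protein-coding gene was 44.4 kb, against 28.1 kb for shared intergenic AE4 peaks and 31.7 kb for H1foo-only intergenic peaks. More than 100 kb from any gene lay 1930 members, or 29.4%, against 11.0% of shared AE4 peaks and 15.2% of H1foo-only peaks. The member farthest from a gene, chr18:28167137-28167620, lay 2098 kb from Pik3c3, which codes for a lipid kinase of autophagy. The next 3 were all on chromosome 14. A pair between Olfm4 and Pcdh17 lay 2085 and 2055 kb from a gene, and another lay 1936 kb from Pcdh9. Pcdh17 and Pcdh9 code for protocadherins, adhesion proteins of neurons. The fifth lay 1927 kb from Aga, a lysosomal enzyme gene, on chromosome 8. Their scores of 56.35 to 79.35 were ordinary for the class.

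At the edge of the rule, the 5 members just past 10 kb lay 10006 to 10042 bp from a gene (Tmprss11b, Gm14151, Gm7762, Aebp2 and Trim67) and scored 53.45 to 99.56. Just within it, 4 AE4-only peaks lay 9977 to 9991 bp from Ap3s2, Ndufv1, Adm and Ache and scored 54.59 to 73.49. The share of AE4 peaks without an H1foo overlap was 43.2% inside genes, 49.2% within 10 kb and 64.4% (95% exact binomial interval 63.5% to 65.3%) beyond. The interval covers counting error only, and neighbouring peaks are not independent.

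Gene-free chromosome stretches held more members than peaks of either other class. In the 233 bins of 1 Mb that hold no protein-coding gene, members numbered 2.11 per Mb of intergenic sequence, against 0.198 shared AE4 peaks and 1.28 H1foo-only peaks. In bins with 1 to 4, 5 to 14 and 15 or more genes, members numbered 3.19, 7.81 and 13.7 per Mb, and H1foo-only peaks 4.30, 19.1 and 46.6 per Mb. The gene-free bins held 492 members, or 7.48% of the class, against 1.27% of shared intergenic AE4 peaks and 2.003% of H1foo-only intergenic peaks. From gene-free bins to those with 15 or more genes, the density of members was 6.49 times higher, that of shared AE4 peaks 65.2 times and that of H1foo-only peaks 36.6 times. Members were therefore still more frequent where genes were dense, but the gradient was the shallowest of the 3 classes. Sharing itself depends on where H1foo peaks lie. Of intergenic AE4 peaks, 91.45% were unshared in gene-free bins and 51.58% in bins with 15 or more genes. The contrast between members and shared AE4 peaks thus follows in part from the rule, and the size of that part was not tested. With chromosome 8 left out the values for members and for H1foo-only peaks were 6.54 and 37.9.

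Of 2430 bins of 1 Mb with intergenic sequence, 1863, or 76.7%, held at least 1 member, with a median of 2 in occupied bins. Of these bins, 392 held members but no H1foo-only intergenic peak. In reverse, 1720 bins held H1foo-only intergenic peaks, and 249 of them held no member. With bins of 500 kb the share that held a member was 57.7%. In 183 bins with 345 members there was no H1foo peak of any kind. The region from Slc39a10, a zinc transporter gene, to Tmeff2 on chromosome 1 held 7 members over 3955 kb, and 4 of them were among the 5 members farthest from any H1foo peak, at 2289 to 2601 kb. The farthest of all, at 2621 kb, lay between Frmd4b and Mitf, the gene for a regulator of pigment cells.

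Of the 5 bins with the most members, 4 were on chromosome 8. The leading bins there were 126 to 127 Mb with 34 members around Irf2bp2, 121 to 122 Mb with 32 around the forkhead genes Foxf1, Foxc2 and Foxl1, and 120 to 121 Mb with 27 around Gse1. Then followed 125 to 126 Mb of chromosome 4 with 24 members near Rspo1, which codes for a Wnt pathway agonist, and 112 to 113 Mb of chromosome 8 with 24. Other peaks were also many in the first 4 of these bins, with 52, 129, 58 and 80 H1foo-only intergenic peaks. The bin at 112 to 113 Mb differed, with 24 members, 5 shared AE4 peaks and 16 H1foo-only peaks.

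Chromosome 8 as a whole held 817 members, or 12.2 per Mb of intergenic sequence. The median over the remaining 18 autosomes was 4.79 per Mb, lower by a factor of 2.54, with a highest value of 7.75 on chromosome 2 and a lowest of 3.49 on chromosome 14. The same factor was 4.83 for shared intergenic AE4 peaks and 2.03 for H1foo-only intergenic peaks, so the excess on this chromosome was not limited to members. The cause of the excess was not tested. As a share of a chromosome's AE4 peaks, members were most on chromosome 13, at 30.7%, and least on chromosome 11, at 8.36%.

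**Figure D4:**
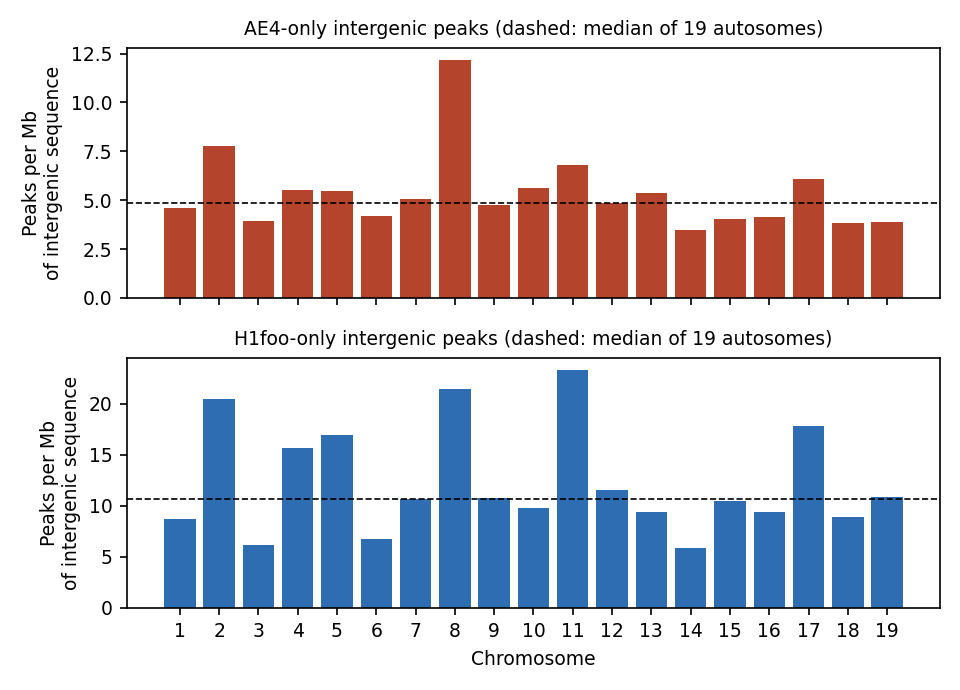
Peaks per Mb of intergenic sequence on each autosome, for AE4-only (upper panel) and H1foo-only (lower panel) intergenic peaks, with the median of 19 autosomes dashed. Chromosome 8 stands highest for AE4-only peaks at 12.2 per Mb, and chromosome 11 for H1foo-only peaks at 23.3 per Mb.

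Many members lay far from any H1foo peak. The median gap from a member to the nearest H1foo peak was 10.6 kb, against 2.38 kb for AE4-only peaks inside genes and 2.70 kb for AE4-only peaks within 10 kb of a gene. At most 1 kb separated 14.2% of members from an H1foo peak, against 31.9% of AE4-only peaks inside genes. A gap above 100 kb was found for 1340 members, or 20.4%, against 3.69% of AE4-only peaks inside genes, and 98 members had a gap above 1 Mb. H1foo peaks are themselves denser near genes, and the part of this in the gaps was not tested. At the other end, a member near Inf2 directly abutted an H1foo peak with a gap of 0 bp, and members near Ptma and Spg7 lay 3 bp from one.

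**Figure D5:**
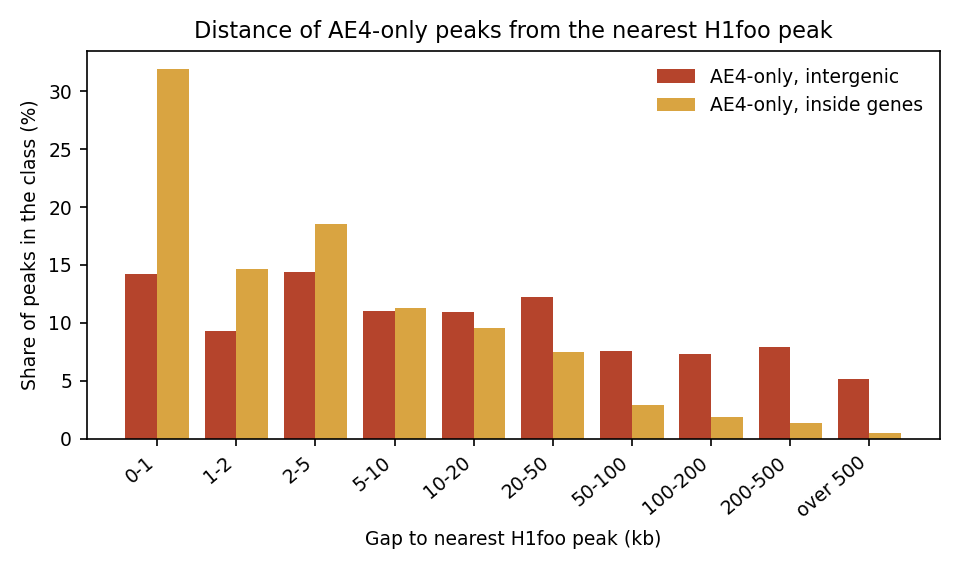
Share of AE4-only peaks (%) by the gap to the nearest H1foo peak (kb), for intergenic peaks and for peaks inside genes. The first class, up to 1 kb, holds 14.2% of intergenic and 31.9% of genic AE4-only peaks, and the classes above 100 kb together hold 20.4% and 3.69%.

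How many members stood alone depended on the gap allowed. When centres at most 10 kb apart were joined, 780 clusters held 1802 members, or 27.4%, and 4772 members were single. With a gap of 5 kb the share in clusters was 17.2%, and with 50 kb it was 54.8%. At 10 kb, pairs made up 599 of the clusters, and the largest held 7. One of these spanned 28.8 kb between Irf8, which codes for a transcription factor of myeloid cells, and Foxf1, which codes for a forkhead factor of lung and gut mesenchyme. It lay among 3 other AE4 peaks and 10 H1foo peaks. The other spanned 14.3 kb between B4galt5, a glycosyltransferase gene, and Slc9a8, with no other AE4 peak and 2 H1foo peaks. The third cluster held 6 members between Irf2bp2 and Tomm20. Clusters of 5 followed between Uncx and Micall2 and between Foxl1 and 1700018B08Rik. Between Ednra, the endothelin receptor gene, and Ttc29, a cluster of 5 chosen after its values were seen contained neither another AE4 peak nor an H1foo peak.

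Between neighbouring genes, members were absent from most intervals and many in a small number. Of 8341 stretches of intergenic sequence between genes, 2863 held a member and 65 held 10 or more. The median length was 96.33 kb for stretches with a member and 20.96 kb for those without. The part of length in these counts was not tested. The 5 intervals with the most members were all on chromosome 8. Between Got2, a mitochondrial transaminase gene, and Cdh8, a cadherin gene, 29 members lay over 3116 kb beside 4 shared AE4 and 21 H1foo-only peaks. The interval from Irf8 to Foxf1 held 27 members in 307.7 kb, that from Foxl1 to 1700018B08Rik held 25 in 380.1 kb, and that from Irf2bp2 to Tomm20 held 24 in 316.7 kb. From Terf2ip, the gene of a telomere-binding protein, to Cntnap4 there were 24 members in 529.3 kb beside 5 shared AE4 and 16 H1foo-only peaks. Densities thus ran from 9.31 to 87.8 members per Mb among these 5.

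In 807 of the 2863 intervals with a member, holding 1131 members, no shared AE4 peak and no H1foo-only peak accompanied them. The intervals of this kind with the most members were long and gene-poor, and are named here after their values were seen. From Nxph1, which codes for a neurexin ligand, to Ndufa4, 12 members lay over 2631 kb. Between Lrriq3 and Negr1, a neuronal adhesion gene, 9 members lay over 1348 kb. Between Ddx18 and Dpp10, which codes for an auxiliary subunit of neuronal potassium channels, 8 lay over 1744 kb.

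The genes nearest to members were counted in lists of gene families. Of all 11906 protein-coding genes that are nearest to some intergenic sequence, 3410, or 28.6%, were nearest to a member. Over all such sequence there were 5.38 members and 12.1 H1foo-only peaks per Mb, and 2.98 shared AE4 peaks. A list's count is read beside these values, with no test.

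Receptor families of smell had few members but fewer peaks of the other classes. Beside olfactory receptor genes, 50 members and 22 H1foo-only peaks were found, or 3.83 and 1.69 per Mb, and 45 of 752 genes, or 5.98%, were nearest to a member. Beside vomeronasal receptor genes, which serve pheromone sensing, there were 26 members and 18 H1foo-only peaks, or 2.09 and 1.45 per Mb. Both families are large tandem arrays of similar genes, where read placement is uncertain. The 2 members nearest to Olfr1269 scored 56.01 and 61.06.

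Beside 2 lists of adhesion genes, too, members were more numerous than H1foo-only peaks. Cadherin and protocadherin genes had 104 members and 95 H1foo-only peaks, or 2.61 and 2.38 per Mb, and 24 of 31 genes were nearest to a member. Cdh8 had 13 members and 11 H1foo-only peaks, while Cdh5 had the reverse order, with 7 and 8. Cdh11, Pcdh17 and Pcdh9 had 10 members each, against 3, 1 and 4 H1foo-only peaks. Contactin and neurexin genes had 38 members and 20 H1foo-only peaks, or 3.10 and 1.63 per Mb. Within that list Cntnap5a, whose product belongs to the neurexin superfamily, had 14 members scoring 50.37 to 99.71, against 2 H1foo-only peaks. Both lists lie beside long stretches, with 39.87 Mb nearest to the 31 cadherin and protocadherin genes and 12.26 Mb nearest to 14 contactin and neurexin genes. Members per H1foo-only peak were 1.095 and 1.900 in these lists, and 1.657 in all gene-free bins of 1 Mb. The part of low gene density in these values was not tested.

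Other families had the order of the whole intergenic sequence, with more H1foo-only peaks than members. Developmental transcription factor genes of the Sox, Pax, Fox, Tbx, Irx, Lhx, Nkx, Pou and Hox families had 168 members and 459 H1foo-only peaks, or 8.09 and 22.1 per Mb. Foxl1 was nearest to 16 members and Foxf1 to 11, both forkhead genes, and the Iroquois genes Irx3 and Irx5 to 10 each. Zfp zinc finger genes had 137 members and 382 H1foo-only peaks, or 8.24 and 22.96 per Mb. Potassium channel genes had 56 members and 78 H1foo-only peaks, semaphorin genes, whose products guide axons, had 7 and 8, and predicted Gm genes had 302 and 496.

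Genes of the pluripotency network, which keeps stem cells undifferentiated, had 42 members and 186 H1foo-only peaks, or 7.95 and 35.2 per Mb. Of 23 such genes beside intergenic sequence, 10 were nearest to a member. Nr5a2, which codes for a nuclear receptor, had 15, scoring 50.65 to 92.90 and lying 11.79 to 438.8 kb away. Tbx3 had 6, Klf5 and Myc 5 each, Sox2 4 and Tfcp2l1 3, and Klf4, Prdm14, Sall4 and Zfp42 had 1 each. All of these except the marker gene Zfp42 code for factors known for roles in the pluripotent state, and Myc is also a general growth regulator.

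The 4 members beside Sox2 lay 41.96 to 132.2 kb from the gene. The highest, chr3:34776715-34777160, scored 98.96 and was 15.03 kb from an H1foo peak, while that at chr3:34731066-34731397 scored 68.60 and was 0.760 kb from one. The highest member beside Klf5, chr14:99540666-99541374, scored 108.7 and lay 227.6 kb from the gene and 26.5 kb from an H1foo peak. Beside Myc, distances ran from 144.7 to 783.3 kb, and 2 of the 5 members lay more than 400 kb from any H1foo peak. Members of this list thus included both peaks hard by an H1foo peak and isolated ones.

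Non-coding genes covered 14.4% of intergenic sequence and held 19.2% of members, against 26.2% of shared AE4 peaks and 24.7% of H1foo-only peaks. Per Mb of these genes there were 7.18 members, 5.41 shared AE4 peaks and 20.9 H1foo-only peaks. lncRNA genes covered 12.01% of intergenic sequence and held the centres of 1071 members, or 16.3%, against 21.5% of shared AE4 peaks and 21.5% of H1foo-only peaks. In pseudogenes 158 members were centred, or 2.40%, against 4.40% of shared AE4 peaks and 3.02% of H1foo-only peaks. Members lay in 827 different lncRNA genes, and 8 genes held 5 or more. The most, 8, were in Gm30215, beside 7 H1foo-only peaks, and in Snhg14, beside 6. Gm30215 spans 146.6 kb and Snhg14 1177 kb, and lncRNA genes as a whole held 7.30 members per Mb of their intergenic sequence. The number in Snhg14 was thus close to that density.

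Snhg14 is the long host transcript of small nucleolar RNAs (snoRNAs) in the imprinted region that corresponds to the human Prader-Willi and Angelman region, and it is made from the paternal copy. Its 8 members stood beside 10 shared AE4 peaks over 1177 kb, and scored 52.04 to 89.47. The autosomes hold 1286 snoRNA genes, and 10 members, 11 shared intergenic AE4 peaks and 20 H1foo-only intergenic peaks touched one. Of the 10 snoRNA genes that shared bases with a member, 6 lay in this transcript. The share of all snoRNA genes that lie in it was not counted. The highest member at these 6 genes, chr7:59886791-59887504, scored 89.47 and covered Snord116l5, and chr7:59889292-59889660 scored 56.24 and overlapped Snord116l4. The others there were Gm25210, Gm25157, Gm22941 and Gm25597. Copies of this snoRNA family are near-identical, so reads may be placed at the wrong copy. No tRNA, ribosomal RNA or small nuclear RNA gene shared bases with a member or with a shared intergenic AE4 peak, while 2, 5 and 2 H1foo-only peaks touched such genes. These genes cover only 0.0143, 0.00607 and 0.0513 Mb of intergenic sequence, too little for such counts to set the classes apart.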

How the data were processed

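Chromatin of 4 libraries, 2 per antibody, was cut by enzyme digestion, per the labels' protocols. Reads were aligned with Bowtie 1.1.2 to mm10, per the submitters' processing notes, and peaks were called with MACS, per the file headers (version not stated). The score of each peak in the 2 deposited lists is the authors' peak caller's own value. No source used here gives how 2 libraries made 1 list or names a control. Labels number replicates, but nothing says they came from separate cultures.

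From the lists, overlap (1 bp or more), distances from peak centres, 1 Mb bins and 10 kb clusters were computed with Python 3.11.15, numpy 2.4.6, pandas 2.3.3 and scipy 1.17.1, against 20665 autosomal protein-coding genes of RefSeq GRCm38.p6, the mm10 assembly. Interval functions were tested on simulated data. Intergenic sequence (1221 Mb) ran between the first and last annotated gene or peak of each autosome, more than 10 kb from protein-coding genes. Densities divide by that sequence. Genes named were the 10 highest, 5 widest and 5 farthest members, the 5 on each side of 10 kb (1 is not reported here), the top 5 bins, clusters and intervals, up to 5 genes of each list with the most members, and all members at pluripotency genes; others were chosen after their values were seen. Members and lists were chosen with earlier results of these data known. No genome was used here, so the planned base composition of the peaks was not made.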

Additional observations from a re-analysis of the deposited data

Results flagged for a closer look

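The sex chromosomes lay outside the rule, and AE4 peaks appeared there too. Chromosome X held 215 AE4 peaks, of which 118, or 54.9%, met the overlap and distance criteria, with scores of 50.04 to 102.4 and a median of 56.1. Chromosome Y held 28 AE4 peaks, of which 23, or 82.1%, met them, with scores of 50.26 to 127.0 and a median of 60.6. On the autosomes 13.9% of AE4 peaks met them, with 30.7% on chromosome 13 as the highest share of an autosome. Of the 97825 peaks of the H1foo list, 97617 were autosomal, so few H1foo peaks could lie on X or Y. The part of this in the shares on X and Y was not tested. The numbers on X and Y were also above the limit of 3 that a count of 0 allows. Any larger count is, so this is no test of these peaks.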

How the results depend on the processing

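The number of members, 6574 as reported, was 3075 beyond 50 kb from genes, 2954 at a score of at least 60, 779 at a score of at least 80 and 3764 when genes of any type were used. Their share of AE4 peaks, 13.93% as reported, was 16.80% beyond 5 kb, 6.514% beyond 50 kb, 11.95% with no H1foo peak within 1 kb, 14.44% when a shared peak had to cover 50% of the AE4 peak, 10.50% and 6.111% at the 2 score limits, 7.974% with genes of any type and 14.41% without chromosome 8. The share of members in gene-free bins, 7.484% as reported, was 6.203%, 15.90%, 8.490%, 6.669%, 5.648% and 10.23% at 5 kb, at 50 kb, with no H1foo peak within 1 kb, at the 2 score limits and with genes of any type. The density ratio of 10 to 50 kb over beyond 1 Mb, whose alternatives were chosen after seeing the data, was 5.195 as reported, 4.279 with no H1foo peak within 1 kb, 6.845 at a score of at least 80 and 8.755 for all intergenic AE4 peaks. These values differ because each alternative keeps other peaks. The score limits and the removal of chromosome 8 also applied to the AE4 peaks that the share divides by. Those numbered 28132 at a score of at least 60 and 12747 at 80, against 47206 as reported. The remaining 13 values under alternatives for these 4 results moved less than their counting interval or, for the number, by less than 1.5 times. No paired analysis was possible because each antibody has 1 list with no value per library, and for the same reason no replicate could be left out. Base composition over another window was not run. Depth is unknown, and 55.1% of members score below 60.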
